A study of Mus musculus with 24 samples.

Results

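The matrix metalloproteinases (Mmp genes), the ADAMTS proteases and ADAMTS-like proteins (Adamts and Adamtsl genes) and the tissue inhibitors of metalloproteinases (Timp genes) were followed in RNA of the mouse fibroblast line C3H 10T1/2, which was derived from embryos. The members were all genes whose reference gene name in the 24 transcript files was Mmp, Timp 1 to 4, Adamts or Adamtsl followed by a number. The rule found 30 genes of 35260 in the files. They comprised 12 Mmp, 3 Timp, 11 Adamts and 4 Adamtsl genes. GENCODE vM21 annotates 51 genes with such names. Of the rest, 14 had unnamed assembled transcripts over their exons, at up to 12.2 TPM (Adamts6), and were not members, and 7 were not analysed here.

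All cells were of strain C3H and labelled fibroblast. The 3 lines were unedited (WT), LncMyoD-KO clone 1 and LncMyoD-KO clone 2, in which a long noncoding RNA gene next to Myod1 is knocked out. Each line was left untreated, infected with a MyoD adenovirus, transfected with a LncMyoD plasmid, or given both, which made 12 groups of 2 libraries each. MyoD is the transcription factor that turns fibroblasts into muscle cells, and the study asked how its action depends on LncMyoD. Each knockout line was 1 clone, so genotype and clone cannot be told apart. The labels name no empty virus or empty plasmid, and they give medium with 10% fetal bovine serum for growth and 2% horse serum once transdifferentiation by MyoD had begun, so virus, MyoD and medium cannot be told apart. The labels do not say whether the 2 libraries of a group came from separate cultures, so the spread behind each p-value is that of these libraries and may be technical.

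The metalloproteinases of both protease families hold a zinc ion in the active site and are made as inactive precursors. Mmp enzymes cut collagens and other matrix proteins outside the cell, some while anchored in its membrane, ADAMTS enzymes trim procollagens and proteoglycans, and TIMPs block the active site of these enzymes. Fibroblasts are a main source of them, and myoblasts remodel the same matrix as they migrate and fuse.

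The libraries differed in make-up between lines. Transcripts of a ribosomal RNA repeat copy on chromosome 17 took 55.6 to 69.2% of TPM (a length-normalised transcript level) in wild type. They took 36.8 to 70.0% in clone 1 libraries but 2.68 to 7.90% in those of clone 2. Mitochondrial transcripts took 2.06 to 3.84%, 1.32 to 2.20% and 7.91 to 14.0%. Between 8264 and 10692 genes reached 1 TPM in wild type and clone 1 libraries, and 14078 to 15924 did so in clone 2. The deposited TPM values summed to 710312 to 979898 per library. Depth, as aligned bases derived from coverage over FPKM, was 2.43 to 5.93 gigabases per library. Myod1 itself was at 2.32 to 3.23 TPM without and 3301 to 3735 TPM with the virus in wild type, 2.44 to 3.76 and 1665 to 3641 TPM in clone 1, and 0 to 1.39 and 929.6 to 1222 TPM in clone 2. Of 7 fibroblast markers, 6 or 7 reached 1 TPM in every line. Skeletal muscle markers summed to 0 TPM in wild type, to at most 1.07 TPM in clone 1 and to 2.50 to 7.13 TPM in clone 2 without the virus. With it they reached 15.1 to 21.1 TPM in wild type, 3.58 to 6.66 TPM in clone 1 and 381 to 861 TPM in clone 2.

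Gelatinase and inhibitor RNA dominated the group in the unedited fibroblasts. Mmp2 (gelatinase A, which digests denatured collagen and basement membrane collagen), Timp2 (which inhibits Mmp2 and also takes part in its activation) and Adamts1 (a versican and aggrecan protease) were the top members, in this order, in all 8 wild type libraries. Mmp2 alone was 48.3 to 57.6% of the summed TPM of all members there. It was also first in 8 of 8 clone 1 libraries. In clone 2 without MyoD, Mmp2 led in 3 libraries and Adamts1 in 1, and Mmp14 came next after these in all 4. In clone 2 with MyoD, Mmp2 led in 2 libraries and Mmp3 in the other 2.

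The Mmp genes together stood at 701.6 to 1145 TPM in wild type without MyoD, 222 to 299 TPM in clone 1 and 1159 to 2041 TPM in clone 2, so the 3 lines did not overlap. The Timp genes stood at 247 to 433 TPM in wild type, 100.2 to 132 TPM in clone 1 and 449 to 698 TPM in clone 2. The ratio of the Mmp to the Timp sum, which does not depend on the scaling of a library, was 2.35 to 3.05 in wild type without MyoD. In clone 1 that ratio was 2.20 to 2.64, and in clone 2 it was 2.58 to 3.13. These ranges overlapped. With MyoD the ratio was 2.04 to 2.76, 2.05 to 2.55 and 1.87 to 2.23. Rescaled TPM is a share of the TPM given to genes other than the ribosomal copy and the mitochondrial genes. Transcripts not given to a gene are outside that total too. All members together took 8791 to 11940 rescaled TPM in wild type without MyoD. The same value was 3708 to 6121 for clone 1 and 3802 to 5072 for clone 2. The totals behind these values were 98567 to 177939 TPM for wild type, 91424 to 123461 TPM for clone 1 and 715190 to 789644 TPM for clone 2. How far the gap between lines rests on the transcripts left out was not tested.

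**Figure D1:**
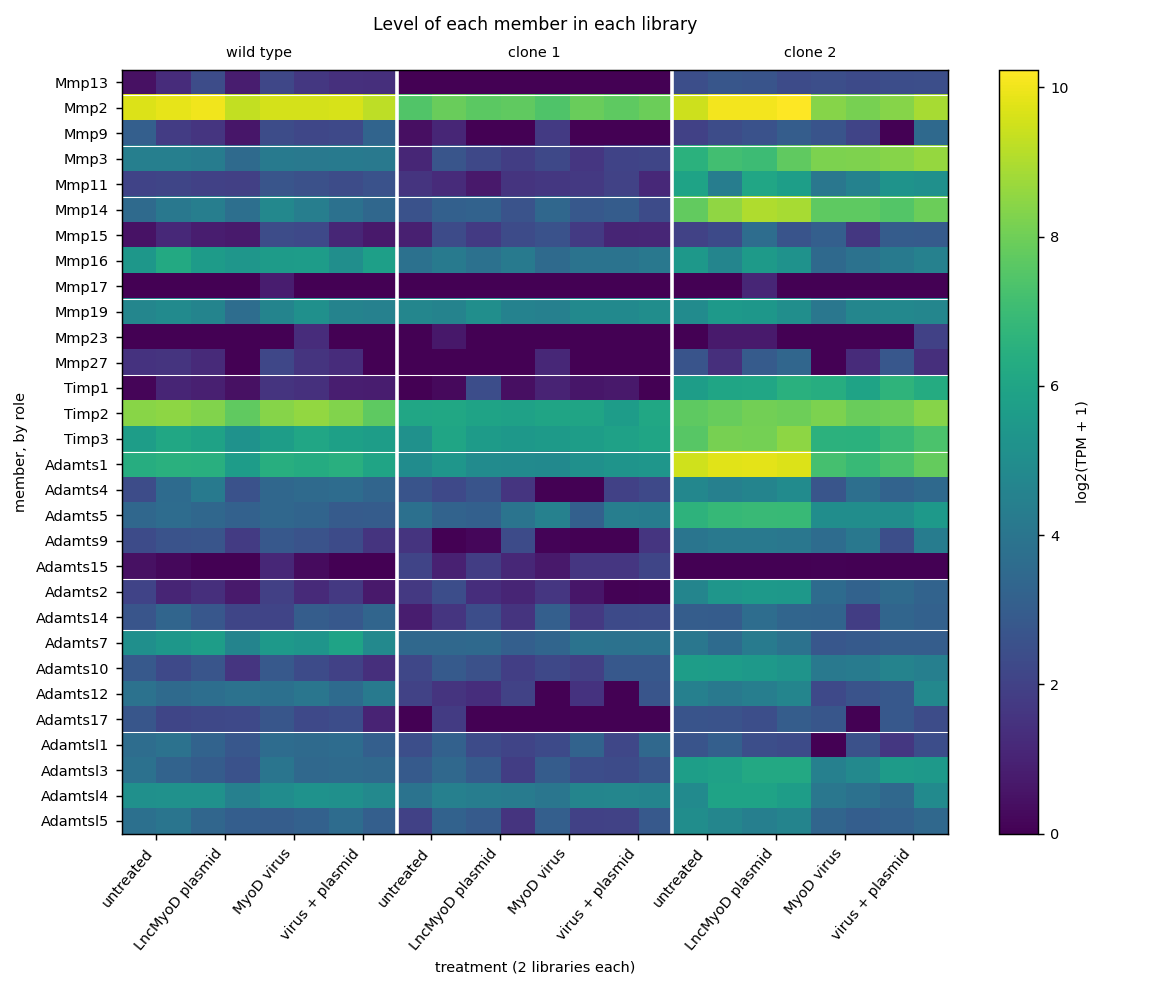
Level of the 30 members (rows, grouped by role) in the 24 libraries (columns, 2 per treatment and line), as log2(TPM + 1) in colour. Mmp2 and Timp2 are bright in wild type and clone 2 and dimmer in clone 1, and Mmp3, Mmp14, Timp1 and Adamts1 are brightest in clone 2.

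Below, a member is called where limma's adjusted p (Benjamini-Hochberg over the 19983 genes tested) was at most 0.05 and the difference of log2(TPM + 1) at least 1. Such differences understate the change of low genes. Of the 30 members, 29 reached 1 TPM in at least 2 libraries and were tested. The exception was Mmp17, a membrane-type enzyme, whose highest value was 1.17 TPM. Of the 29, 22 had a group mean of at least 10 TPM somewhere. Comparisons of MyoD or of lines pooled libraries with and without the plasmid, 4 against 4. Assembled transcripts without a reference name that lay mostly outside annotated exons, as in introns, entered no gene's sum. In a setting added after seeing the data, those with at least 50% of their span inside a gene, on its strand or with no strand, were added to that gene, and these intragenic transcripts are given below wherever they ended a call of a named member.

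MyoD left the members' RNA in wild type and clone 1 without a call. In wild type 0 of 29 members were called, against 0.135% of all genes. An unadjusted p under 0.05 was held by 1 member (Mmp15) and by 683 of all 19983 genes. The median difference was 0.09 for the members and 0.00 for all genes. In clone 1 again 0 were called, against 0.115% of all genes. There 3 members (Adamts2, Adamts4 and Adamts5) had an unadjusted p under 0.05, as did 1562 of the 19983 genes. Median-of-ratios scaling and a pseudocount of 0.1 each called 1 member lower there (Adamts4), and TPM rescaled without the ribosomal copy and mitochondrial genes called 2 (Adamts2 and Adamts4). Timp2 may stand for the group: it was at 344, 364, 316 and 211 TPM in wild type without MyoD and at 331, 377, 315 and 206 TPM with it.

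In clone 2 the members moved with MyoD, mostly down. Of the 29, 11 fell and 1 rose, against 10.9% of all genes lower and 2.02% higher, and 13 had arms that did not overlap, against 21.8% of all genes. The median difference was -0.89 for the members and -0.23 for all genes tested. The 11 were Adamts1, Adamts2, Adamts4, Adamts5, Adamts7, Adamts10, Adamtsl4, Adamtsl5, Mmp2, Mmp16 and Timp3, and the 1 was Mmp3. In clone 2 long transcripts as a class were also lower with MyoD: among protein-coding genes at a mean of at least 10 TPM, the median difference was 0.40 under 1000 nt and -0.53 over 4500 nt. Of those over 2000 nt, 18.0 to 20.3% were called lower by length class, against 1.49% of those under 1000 nt. The part of this trend in the members' falls was not tested. Centred on genes of like length, a setting added after seeing the data, 5 members were called, Adamts1, Adamts2, Adamts5 and Adamtsl5 lower and Mmp3 higher. Of all genes, 7.67% were lower and 3.58% higher in that setting. Median-of-ratios scaling called 5 lower and FPKM 4, each with Mmp3 higher, where 1.84% and 3.13% of all genes were lower. With intragenic transcripts added 9 fell, Mmp27 among them, and 1 rose, while Mmp16, Adamts7 and Adamts2 were not called. Muscle marker RNA rose over the same libraries (above) while fibroblast markers went from 7070 to 9409 TPM down to 2165 to 3444 TPM, and their part in the members' changes was not tested. In such bulk RNA, fewer cells of a type and less RNA per cell cannot be told apart.

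Mmp3 (stromelysin-1, which cuts proteoglycans, fibronectin and basement membrane proteins and activates other Mmp precursors) was the member that rose. It lies on chromosome 9, at chr9:7445822-7455975 of mm10 on the plus strand, in a cluster with Mmp13 and Mmp27. In clone 2 it was at 93.1, 139, 129 and 212 TPM without MyoD and at 296, 309, 333 and 392 TPM with it. The arms did not overlap, and the difference was 1.26 ± 0.29 on the log2 scale (SE, 4 against 4 libraries, limma adjusted p = 0.00565). In wild type Mmp3 stayed between 10.7 and 20.6 TPM in all 8 libraries and in clone 1 between 1.15 and 5.56 TPM. The call in clone 2 was made under all 10 other settings and without each of 8 libraries in turn. Within the Mmp genes, a share that does not depend on library scaling, Mmp3 went from 6.79 to 10.4% without MyoD to 32.2 to 35.8% with it. Mmp2 went from 56.7 to 63.5% to 32.3 to 38.8%. The difference between the clone 2 and wild type responses of Mmp3 was 1.25 ± 0.41 and was not called (limma adjusted p = 0.0762). It was called higher in clone 2 under 5 other settings, among them 1.71 with median-of-ratios scaling, 1.92 with FPKM and 1.46 with length centring.

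The sequences upstream of 4 members are shown because they carry the results above and below: Mmp3 rose in clone 2, Mmp13 is its neighbour, Adamts1 fell most, and Mmp14 differed most firmly between lines. They are the last 150 bases before the RefSeq transcript start, on the gene's strand, from the RefSeq promoter table of build GRCm38.p6. Capitals mark matches, on either strand, to the AP-1 motif TGAGTCA, which reads in reverse complement in Mmp13, or to the TATA box letters TATAAA.
Mmp3: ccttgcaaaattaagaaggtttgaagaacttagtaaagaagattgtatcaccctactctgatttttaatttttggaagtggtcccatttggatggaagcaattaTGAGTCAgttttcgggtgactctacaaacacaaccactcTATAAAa
Mmp13: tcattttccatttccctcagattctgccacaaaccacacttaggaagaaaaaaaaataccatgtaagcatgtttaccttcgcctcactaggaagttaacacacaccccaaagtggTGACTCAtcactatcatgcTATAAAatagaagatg
Adamts1: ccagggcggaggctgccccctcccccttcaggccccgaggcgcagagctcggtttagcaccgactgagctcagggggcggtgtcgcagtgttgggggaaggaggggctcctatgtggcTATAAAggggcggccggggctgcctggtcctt
Mmp14: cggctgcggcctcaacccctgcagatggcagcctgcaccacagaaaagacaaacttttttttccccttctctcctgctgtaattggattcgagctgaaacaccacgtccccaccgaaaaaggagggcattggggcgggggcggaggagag

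These stretches are chr9:7445672-7445821 (Mmp3, plus strand), chr9:7272364-7272513 (Mmp13, plus), chr16:85803114-85803263 (Adamts1, minus) and chr14:54431448-54431597 (Mmp14, plus). The table held 20 promoters of 19 members, each 250 bases before to 50 bases after the start. TGAGTCA was in 2 of the 20, those of Mmp3 and Mmp13, and in 5.2% of all 32851 promoters. TATAAA was in 3, those of Mmp3, Mmp13 and Adamts1, and in 13.6% of all. CAGCTG, an E-box of the kind MyoD binds, was in 6 of the 20 (Adamts2, Adamts9, Adamts12, Adamts17, Adamtsl5 and Timp2) and in 16.3% of all. No matches overlapped each other. In Mmp3 the AP-1 match began 46 bases and the TATA match 7 bases before the start, and in Mmp13 they began 35 and 16 bases before it. The Mmp14 window held none of the 3 motifs. GC content of the printed stretch was 35.3% for Mmp3, 38.7% for Mmp13, 69.3% for Adamts1 and 57.3% for Mmp14. Mmp13 (collagenase-3) shares both motifs with Mmp3 but was at 4.08 to 5.67 TPM in clone 2 without MyoD and 3.97 to 4.57 TPM with it, and was not called.

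Among the proteoglycan-cleaving ADAMTS genes, Adamts1, at chr16:85793827-85803113 on the minus strand, fell most. In clone 2 it was at 731, 869, 898 and 819 TPM without MyoD and at 149.8, 118, 158 and 222 TPM with it, a difference of -2.38 ± 0.18 (SE, 4 against 4 libraries, limma adjusted p = 2.11e-07). The arms lay far apart, and the call was made under all 10 other settings. Its difference in clone 1 was 0.12 ± 0.18 and in wild type 0.03 ± 0.18. Adamts5, the aggrecanase that lies 53059 bases from Adamts1 on chromosome 16, went from 96.2, 114, 122 and 117 TPM to 31.4, 31.4, 31.6 and 44.9 TPM, a difference of -1.67 ± 0.25. Adamts5 was lower in each library with MyoD, and its call was lost only where reference-named transcripts alone were summed. Adamts4, another aggrecanase, went from 21.1 to 29.4 TPM down to 5.5 to 12.4 TPM.

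Adamts2, which removes the N-propeptide of fibrillar procollagens, went from 24.1, 40.9, 44.6 and 42.8 TPM to 10.9, 8.2, 10.7 and 8.62 TPM in clone 2. All libraries with MyoD were below all without, and the difference was -1.85 ± 0.33 (SE, limma adjusted p = 0.000867). Its call was lost only with intragenic transcripts added, where 1 library with MyoD reached 24.4 TPM and the difference was -1.46 (limma adjusted p = 0.0558). The other procollagen N-proteinase member, Adamts14, was at 6.89 to 11.6 TPM and 2.62 to 9.07 TPM and was not called. Adamts10, whose protein associates with fibrillin microfibrils, fell from 38.5 to 51.4 TPM to 16.7 to 23.2 TPM. Adamts7 fell from 11 to 18.3 TPM to 5.78 to 7.15 TPM, a difference that was -0.92 with intragenic transcripts added and then not called. Of the ADAMTS-like genes, which lack a protease domain, Adamtsl4 went from 28.9 to 60.7 TPM to 10 to 29 TPM and Adamtsl5 from 20.7 to 31.8 TPM to 7.27 to 10 TPM. The arms of Adamtsl4 touched, since 1 library with MyoD reached 29 TPM and 1 without was at 28.9 TPM.

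Of the Mmp genes, Mmp2 (chr8:92827291-92853420, plus strand) in clone 2 was at 695, 1069, 1079 and 1207 TPM without MyoD and at 328, 279, 332 and 472 TPM with it. The arms did not overlap, and the difference was -1.52 ± 0.19 (SE, limma adjusted p = 4.73e-05). It was under 1 with FPKM (-0.99) and with length centring (-0.95). With reference-named transcripts alone it was -2.08 with an adjusted p of 0.0866. Mmp16, a membrane-type enzyme that activates Mmp2, went from 43.5, 24.6, 46.1 and 35.9 TPM to 10.2, 13.6, 17.3 and 21.3 TPM, a difference of -1.22 ± 0.23. With intragenic transcripts added Mmp16 was at 40.3 to 77.8 TPM without and 10.2 to 62.2 TPM with MyoD, the arms overlapped, and the difference of -0.98 was not called (limma adjusted p = 0.0995). Mmp14, the main membrane-bound collagenase, was at 221, 371, 512 and 475 TPM and at 206, 204, 179 and 245 TPM. It had an adjusted p of 0.0251 in limma but a difference of -0.85, under the size asked for.

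Of the 3 inhibitors, Timp3 alone was called with MyoD in clone 2. Timp3, the inhibitor that binds to the matrix and also blocks ADAMTS enzymes, fell from 192, 278, 276 and 361 TPM to 95.4, 91.1, 122 and 162 TPM, a difference of -1.23 ± 0.21 (SE, limma adjusted p = 0.0006). Its arms did not overlap. The call of Timp3 was lost with median-of-ratios scaling, FPKM and length centring, and its difference was as small as -0.69. Timp1, an inducible and broadly acting inhibitor, was at 51.6, 63.9, 65.8 and 88.9 TPM and at 83.2, 60.9, 98.8 and 78.3 TPM, with a difference of 0.25 ± 0.35. Timp2 was at 206, 229.6, 268 and 249 TPM and at 296, 235, 248 and 331 TPM, with a difference of 0.21 ± 0.17. Neither was called, and their arms overlapped.

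**Figure D2:**
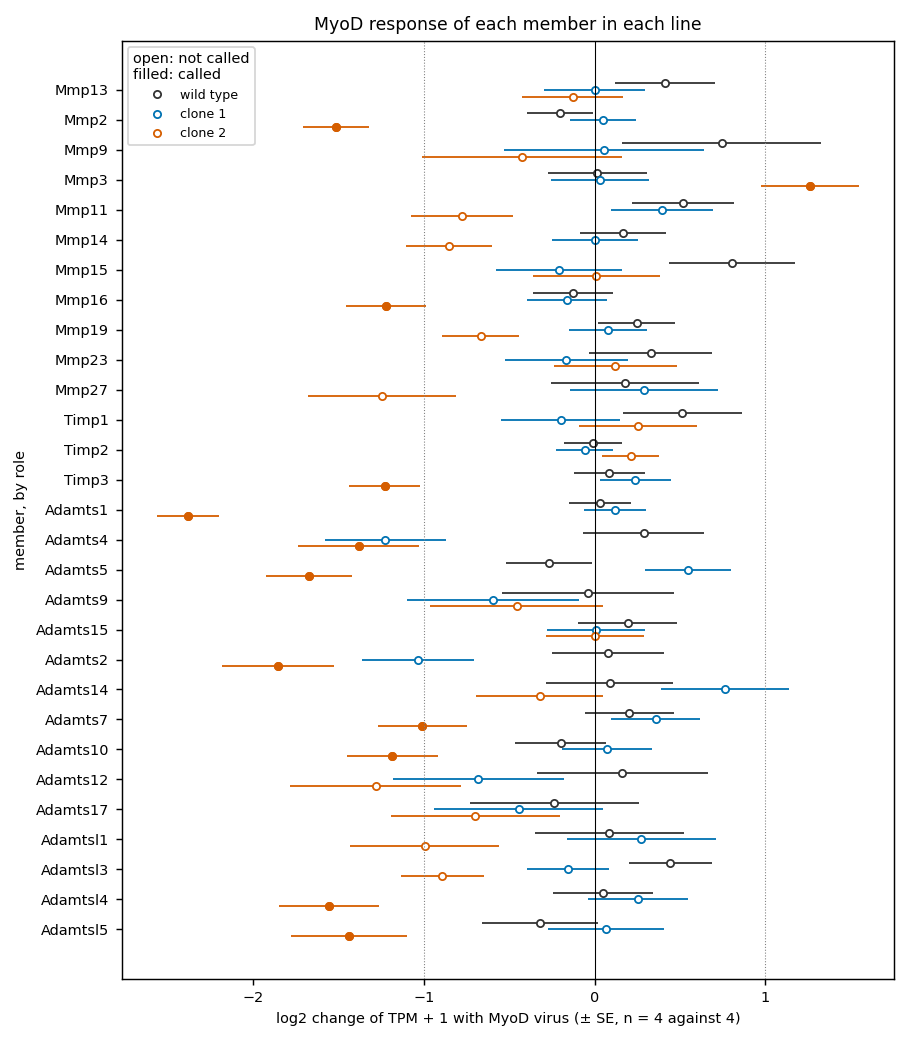
Difference of log2(TPM + 1) with MyoD virus (x axis, ± SE, 4 against 4 libraries) for the 29 members tested (y axis, by role) in wild type (black), clone 1 (blue) and clone 2 (orange). Filled points were called: all 12 are in clone 2, with Mmp3 at 1.26 to the right and Adamts1 at -2.38 farthest to the left.

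The difference between the responses was tested itself. Clone 2 responded lower than wild type in 7 of 29 members and higher in 0, against 5.92% and 0.831% of all genes, with a median of -1.09 for the members and -0.26 for all genes. Among protein-coding genes at a mean of at least 10 TPM, 1.34 to 13.8% responded lower, by length class. The 7 members were Adamts1, Adamts2, Adamts5, Adamtsl3, Adamtsl4, Mmp2 and Timp3. Adamts1 had the largest, -2.42 ± 0.26 (limma adjusted p = 4.06e-05), and alone was called under all 10 other settings. Adamtsl3 was at -0.26 with intragenic transcripts added (limma adjusted p = 0.819) and Adamts2 at -2.01 (adjusted p = 0.112). The lower members were 3 without wild type LncMyoD replicate 2 and 11 without wild type LncMyoD replicate 1, with 0 higher in both. There were 1 lower and 1 higher with median-of-ratios scaling or length centring, and 1 lower and 0 higher with TPM rescaled without the ribosomal copy and mitochondrial genes. FPKM gave 2 lower and 1 higher, reference-named transcripts alone 11 and 1, and only the groups compared 7 and 1. The 1 higher member was Mmp3 in each of these 5 settings. Clone 1 minus wild type gave 0 of 29, against 0.0100% of all genes. In it 3 members (Adamts2, Adamts4 and Adamts5) had an unadjusted p under 0.05, as did 1019 of the 19983 genes.

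Clone 1 held less RNA of many members than wild type. Without MyoD, 10 of 29 were lower and 1 was higher, against 4.06% and 0.295% of all genes, and the median difference was -1.04 for the members and -0.13 for all genes. With MyoD, in other libraries, 13 were lower and 1 higher, against 4.95% and 0.495%, with medians of -0.96 and -0.10. All 10 lower members of the first comparison were among the 13 of the second (76.9% of those). They were Timp2, Mmp2, Mmp3, Mmp13, Mmp14, Mmp16, Adamts1, Adamts7, Adamts12 and Adamts17. The 3 lower with MyoD only in the list of calls were Adamts4, Adamts9 and Mmp9. Mmp9 was at 0 to 2.37 TPM in clone 1 and 3.53 to 8.84 TPM in wild type with MyoD, and Adamts9 averaged 0.513 and 4.30 TPM. With 1 of 8 libraries left out in turn, the call was made 8 times for Adamts4, 2 for Adamts9 and 1 for Mmp9. Without MyoD it was made 2 times for Adamts12, 1 for Adamts17, 4 for Mmp14, 5 for Mmp13 and 7 for Adamts1. With MyoD it was made 3 times for Adamts15 and 6 for Adamts17. Every other call in both comparisons was made 8 times. Adamts15 was the higher member in both. Clone 1 differences had no trend with transcript length: without MyoD the median of genes at a mean of at least 10 TPM lay between -0.45 and -0.40 in every length class. Of these genes more were called lower than of all genes, 7.13 to 13.5% by length class without MyoD and 6.09 to 13.7% with it. The count without MyoD fell to 6 without wild type LncMyoD replicate 1 and to 7 without untreated wild type replicate 2, and it was 5 with reference-named transcripts alone or with only the groups compared in the fit. Depth of the clone 1 libraries was 2.43 to 5.099 gigabases, against 4.399 to 5.93 gigabases for wild type. With MyoD, 21.2 to 37.2% of clone 1 TPM could not be given to a gene, against 15.9 to 20.1% for wild type. Without MyoD these shares overlapped. The part of depth and of unassigned TPM in the members' differences was not tested. The 7 fibroblast markers were lower in clone 1 as well, at 179 to 210.0 TPM against 299 to 457 TPM in wild type without MyoD and at 174 to 239 TPM against 371 to 404 TPM with it. Their part in the members' differences was not tested.

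Timp2, at chr11:118301069-118355740 on the minus strand, had the smallest adjusted p. It was at 344, 364, 316 and 211 TPM in wild type without MyoD and at 65.6, 67.4, 60.4 and 57.4 TPM in clone 1. The lines did not overlap, and the difference was -2.25 ± 0.17 (SE, 4 against 4 libraries, limma adjusted p = 4.4e-07), 4.93-fold lower by the means. With MyoD clone 1 was at 62.2, 61.8, 49.7 and 67.8 TPM and wild type at 331, 377, 315 and 206 TPM, a difference of -2.30 ± 0.17. The call held in both comparisons under all 10 other settings. The other 2 inhibitors were not called: Timp3 was at 35 to 64.1 TPM in clone 1 and 35.8 to 68 TPM in wild type without MyoD, and Timp1 at 0.0132 to 4.35 TPM and 0.114 to 1.08 TPM.

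The enzyme that Timp2 partners was lower in clone 1 as well. Mmp2 was at 175, 238, 203 and 211 TPM in clone 1 and at 819, 939.8, 1024 and 622 TPM in wild type without MyoD, with no overlap. The difference was -2.02 ± 0.19 (SE, limma adjusted p = 6.82e-06) and with MyoD -1.77 ± 0.19. Of the summed TPM of Mmp2, 30.1% came from transcripts without a reference name, and with reference-named transcripts alone its difference without MyoD was -0.66 and was not called. Mmp14 and Mmp16, the membrane-type enzymes of that activation route, followed in the same direction. Mmp16 was at 13, 17.8, 13 and 17.6 TPM in clone 1 and at 41.8, 72.6, 47.9 and 40.7 TPM in wild type, a difference of -1.64 ± 0.23 that was called under all 10 other settings. Mmp14 was at 4.98, 7.71, 8.44 and 5.14 TPM against 10.5, 16.3, 19.6 and 12.2 TPM, a difference of -1.04 ± 0.25 that was under 1 with each other scaling and with intragenic transcripts added (-0.91).

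Both members of the stromelysin and collagenase pair on chromosome 9 were lower in clone 1. Mmp3 was at 1.15, 5.56, 3.63 and 2.67 TPM in clone 1 and at 20.6, 20.3, 18.7 and 10.7 TPM in wild type, a difference of -2.20 ± 0.29 (SE, limma adjusted p = 0.000192). Mmp13 was listed at 0 in all 8 clone 1 libraries and at 0.378 to 4.25 TPM in the 8 of wild type. With reference-named transcripts alone Mmp13 was not called. Among the ADAMTS genes, Adamts1 was at 30.9, 40.9, 29.6 and 29 TPM against 81.1, 89.8, 87.4 and 50.1 TPM, a difference of -1.20 ± 0.18. The call of Adamts1 was made under 6 of 10 other settings in each comparison. Its difference was as small as -0.77 without and -0.79 with MyoD. Adamts12, which cuts cartilage oligomeric matrix protein, was at 1.52 to 3.06 TPM against 10.6 to 13.7 TPM. With intragenic transcripts added it was at 1.93 to 12.1 TPM against 11.8 to 24.4 TPM, and the differences of -1.43 without and -0.86 with MyoD were not called (limma adjusted p = 0.161 and 0.433). Adamts17 was at 0 in 3 clone 1 libraries and 2.44 TPM in 1, against 3.41 to 5.76 TPM. Intragenic transcripts brought Adamts17 to 2.44 to 12.4 TPM in clone 1 and 4.28 to 11.7 TPM in wild type, with differences of -0.01 without and -0.27 with MyoD, so its low level in clone 1 rests on leaving them out. Adamts15 was at 0.928 to 3.31 TPM against 0 to 0.367 TPM, low in both lines.

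Some members did not share the low level of clone 1. Mmp19, an enzyme of basement membrane proteins, was at 22.3 to 32.6 TPM in clone 1 and 11.6 to 28.8 TPM in wild type. Adamts5 was at 7.83 to 14.4 TPM and 8.17 to 11.3 TPM, and Adamts10 at 2.73 to 6.39 TPM and 2.01 to 6.25 TPM. Their arms overlapped, and none of these was called.

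**Figure D3:**
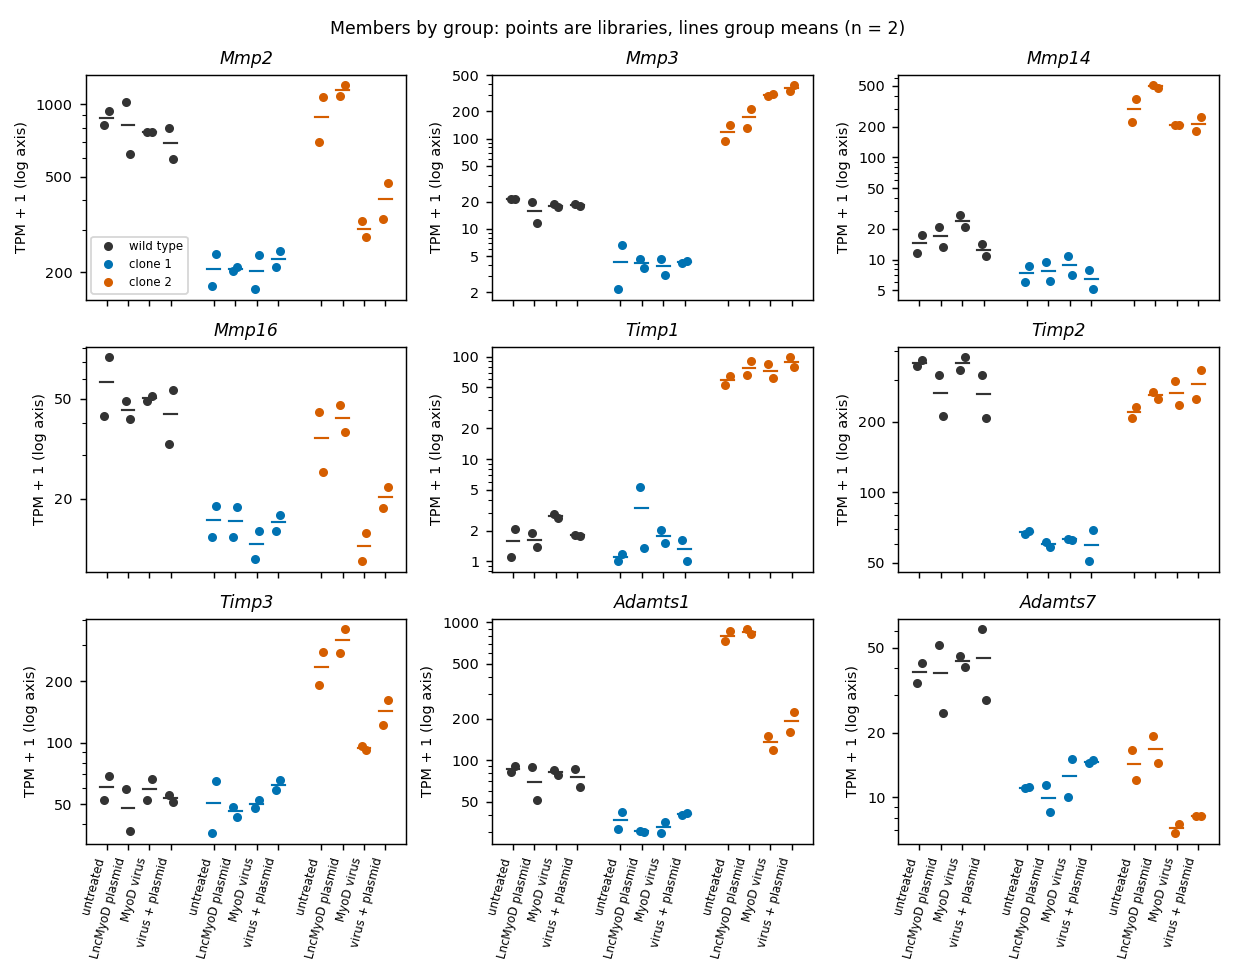
TPM + 1 (log axis) of 9 members in each of the 12 groups: points are libraries, short lines the means of 2, and the x axis gives treatment within wild type (black), clone 1 (blue) and clone 2 (orange). All 8 clone 1 libraries of Timp2, at 49.7 to 67.8 TPM, lie below all 8 of wild type, and Mmp3 is at 93.1 TPM or more in the clone 2 libraries and at 20.6 TPM or less in the others.

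Clone 2 stood above wild type in TPM for most members, as it did for most genes. Without MyoD 16 of 29 members were higher and 1 was lower, against 59.6% and 1.86% of all genes, so the share of members called higher was near that of the background. The median difference was 1.31 for members and 1.47 for all genes. With MyoD 12 were higher and 4 lower, against 50.5% and 3.18%, with medians of 0.10 and 1.08. All 12 were among the 16. Fibroblast markers summed to 7070 to 9409 TPM in clone 2 and 299 to 457 TPM in wild type without MyoD. Of 6 macrophage markers 4 were named in the files, and 3 of these reached 1 TPM in clone 2. The 4 summed to 38.1 to 48.2 TPM and 0.236 to 1.66 TPM. The 2 endothelium markers named summed to 6.55 to 14.7 TPM and 1.60 to 3.88 TPM. The 5 cartilage and bone markers named were not higher, at 116 to 145 TPM and 118 to 188 TPM. Their part in the members' differences was not tested. The split between higher and lower members turned with the scaling. Median-of-ratios scaling, which moved the median of all genes to 0.13, called 3 higher and 12 lower without MyoD and 3 and 15 with it. Of all genes it called 19.0% higher and 13.4% lower without MyoD, and 20.8% and 14.3% with it. TPM rescaled without the ribosomal copy and mitochondrial genes, with a median of all genes of 0.55, called 7 and 9, and 3 and 15 with MyoD. The shares of all genes were then 28.5% higher and 11.3% lower, and 23.8% and 15.4% with MyoD.

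Clone 2 differences also ran with transcript length. Among protein-coding genes at a mean of at least 10 TPM, the median difference without MyoD was 4.77 under 1000 nt, 3.94 from 1000 to 2000 nt, 3.28 from 2000 to 3000 nt, 2.42 from 3000 to 4500 nt and 1.43 over 4500 nt. With MyoD it ran from 5.02 to 0.78. Of these genes, 95.7% under 1000 nt and 58.8% over 4500 nt were called higher without MyoD. The members' differences are therefore set beside these values. Centred on genes of like length, 5 members were higher and 14 lower without MyoD, and 3 and 16 with it, against 8.90% and 58.1%, and 10.1% and 56.4%, of all genes. The centring took off the library median of genes at a mean of at least 10 TPM. A low gene with little change in TPM therefore comes out lower in clone 2 by the setting itself, and the median of all genes was -1.49 without MyoD.

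**Figure D4:**
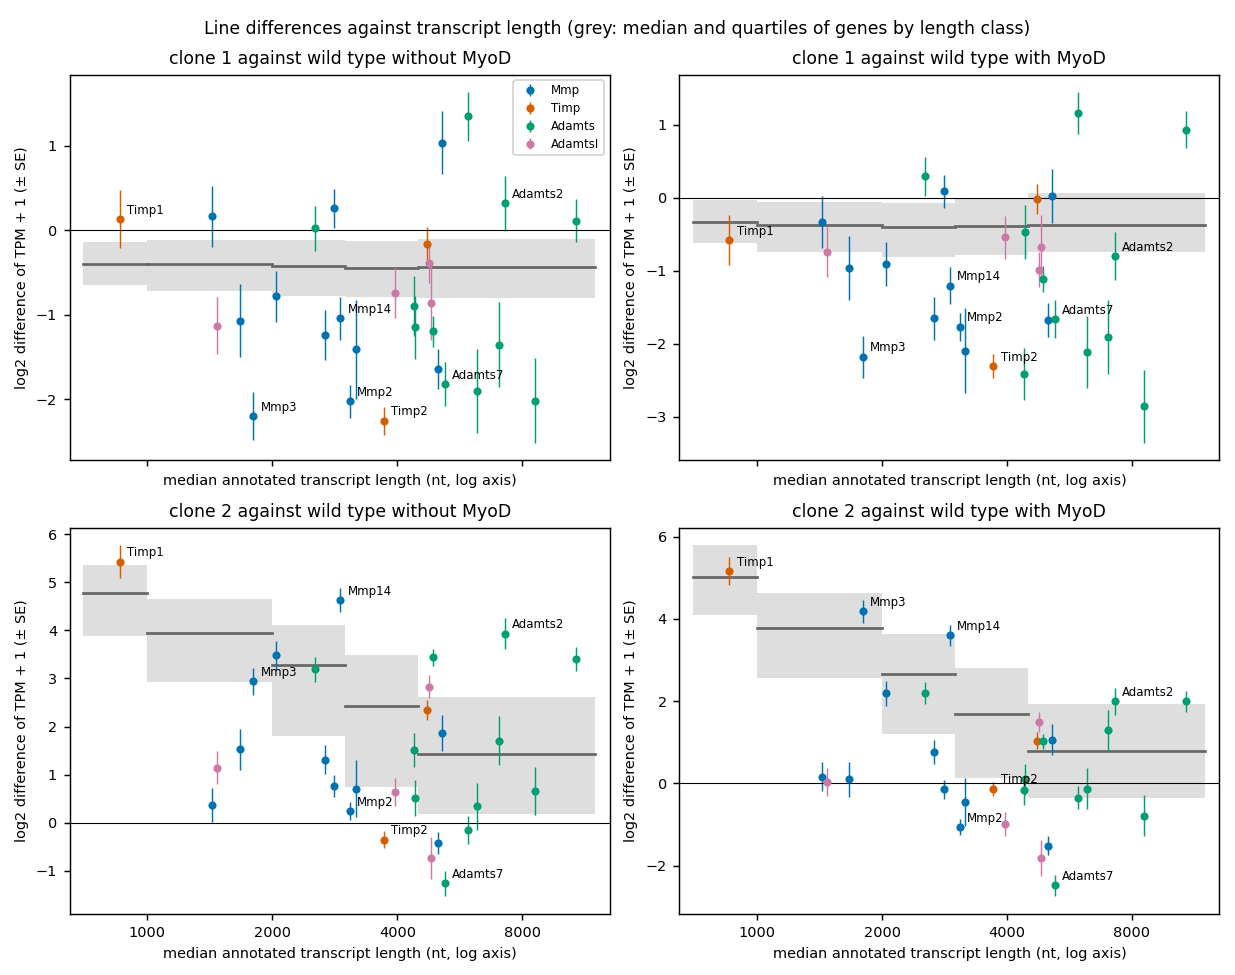
Difference of log2(TPM + 1) between a clone and wild type (y axis, ± SE) against median annotated transcript length (x axis, log) for the 29 members tested, coloured by family, with the median (line) and quartiles (band) of genes at a mean of at least 10 TPM in 5 length classes. The line stays between -0.45 and -0.40 in clone 1 without MyoD and falls from 4.77 to 1.43 in clone 2 without MyoD. In the latter, Mmp14 and Adamts2 are among the members above the band, and Adamts7, Timp2 and Mmp2 are among those below it.

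Mmp14 was higher in clone 2 under every setting. It lies at chr14:54431612-54445364 on the plus strand and has a median annotated transcript of 2917 nt. It was at 221, 371, 512 and 475 TPM in clone 2 and at 10.5, 16.3, 19.6 and 12.2 TPM in wild type without MyoD. The lines were far apart, 26.9-fold by the means, with a difference of 4.63 ± 0.25 (SE, limma adjusted p = 5.1e-11). The difference was 1.90 with median-of-ratios scaling and 1.61 with length centring, both called. With MyoD Mmp14 was at 206, 204, 179 and 245 TPM against 26.2, 19.6, 13.2 and 9.74 TPM, a difference of 3.61 ± 0.25, and 1.37 and 1.11 under those settings. Mmp14 was thus higher in clone 2 and lower in clone 1 than in wild type in TPM.

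Timp1, a gene inside Syn1 on the other strand of chromosome X, at chrX:20870166-20874735, had the largest difference. It was at 51.6 to 88.9 TPM in clone 2 and 0.114 to 1.08 TPM in wild type without MyoD, and at 60.9 to 98.8 TPM and 0.784 to 1.88 TPM with it. The difference was 5.43 ± 0.35 (SE, limma adjusted p = 3.76e-10) and with MyoD 5.16 ± 0.35, and it was 3.15 with median-of-ratios scaling. Timp1 has a short transcript, with an annotated median of 858 nt, and after length centring its difference was 0.76 without and 0.23 with MyoD and was not called. Transcripts that could not be given to a gene by their exons, on the strand of Timp1 and with at least 50% of their span inside the gene, summed to 2.45 to 11.9 TPM in the 8 wild type libraries and 0 to 12.1 TPM in clone 1, and none was found in clone 2. With them added the difference was 3.40 without and 3.32 with MyoD, both called.

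With length centring the 5 members called higher without MyoD were Mmp14, Adamts1, Adamts2, Adamts5 and Adamtsl3. Adamts2 was at 24.1, 40.9, 44.6 and 42.8 TPM in clone 2 and at 3.18, 1.11, 1.63 and 0.657 TPM in wild type without MyoD, a difference of 3.93 ± 0.33 (SE, limma adjusted p = 1.11e-08) that was called under all 10 other settings. With MyoD it was 2.00 ± 0.33, 0.22 with median-of-ratios scaling and 1.08 with intragenic transcripts added, the latter 2 not called. Mmp3 was at 93.1 to 212 TPM in clone 2 and 10.7 to 20.6 TPM in wild type without MyoD, a difference of 2.94 ± 0.29 that became 0.23 with median-of-ratios scaling and -0.86 with length centring. With MyoD it was 4.18 ± 0.29, and 1.94 and 0.60 under those settings, of which the first was called.

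Adamts1, Adamts5, Adamts10, Adamtsl3, Mmp11, Mmp15, Adamts9 and Timp3 were the remaining members higher in both comparisons. Adamts1 had 731 to 898 TPM in clone 2 against 50.1 to 89.8 TPM in wild type without MyoD, and 118 to 222 TPM against 62.9 to 85.8 TPM with it. Its difference was 3.44 and 1.02 in TPM, and 0.68 and -1.23 with median-of-ratios scaling, so with MyoD its direction turned with the scaling. Timp3 turned in the same way, from 2.35 and 1.04 to -0.39 and -1.21. Adamts5 went from 3.40 and 1.99 to 0.72 and -0.14. Adamts4, Adamtsl5, Mmp13 and Mmp27 were called higher without MyoD alone, and each had a negative difference with median-of-ratios scaling. Mmp13 was at 0.15 with intragenic transcripts added and was not called.

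Against the general rise of TPM, 1 of 29 members (3.45%) was lower in clone 2 without MyoD and 4 (13.8%) with it. Of all genes, 1.86% and 3.18% were lower. Median-of-ratios scaling called 12 and 15 members lower, beside 13.4% and 14.3% of all genes. Adamts7, at chr9:90163069-90208071 on the plus strand, was at 15.7, 11, 18.3 and 13.4 TPM in clone 2 and at 33.3, 41.2, 50.7 and 23.7 TPM in wild type without MyoD, with no overlap. The difference was -1.26 ± 0.26 (SE, limma adjusted p = 0.000351), and with MyoD -2.48 ± 0.26. Adamts7 was also lower in clone 1, at 10.1, 10.1, 10.3 and 7.56 TPM, by -1.82 ± 0.26. Of its summed TPM, 75.1% came from assembled transcripts without a reference name. With reference-named transcripts alone the difference in clone 2 without MyoD was 2.07.

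With MyoD, Mmp16, Mmp2 and Adamtsl1 were lower too. Mmp16 was at 10.2, 13.6, 17.3 and 21.3 TPM in clone 2 and at 48.3, 50.2, 32 and 53.2 TPM in wild type, a difference of -1.52 ± 0.23. The call was lost with intragenic transcripts added, where clone 2 was at 10.2, 62.2, 34.1 and 21.3 TPM, wild type was unchanged, the lines overlapped and the difference was -0.75 (limma adjusted p = 0.105), and was made under the other 9 settings. Mmp2 was at 328, 279, 332 and 472 TPM against 771, 766, 794 and 593 TPM, a difference of -1.07 ± 0.19. Without MyoD neither was called, at -0.42 ± 0.23 for Mmp16 and 0.25 ± 0.19 for Mmp2. Adamtsl1 was at 0 to 4.85 TPM against 7.69 to 11.3 TPM. With intragenic transcripts added it was at 2.56 to 30.3 TPM against 12.3 to 14.9 TPM, and the difference of -0.60 was not called (limma adjusted p = 0.294). Timp2 was near wild type in TPM, at -0.35 ± 0.17 without and -0.13 ± 0.17 with MyoD, but -3.10 and -2.40 with median-of-ratios scaling, both called lower.

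**Figure D5:**
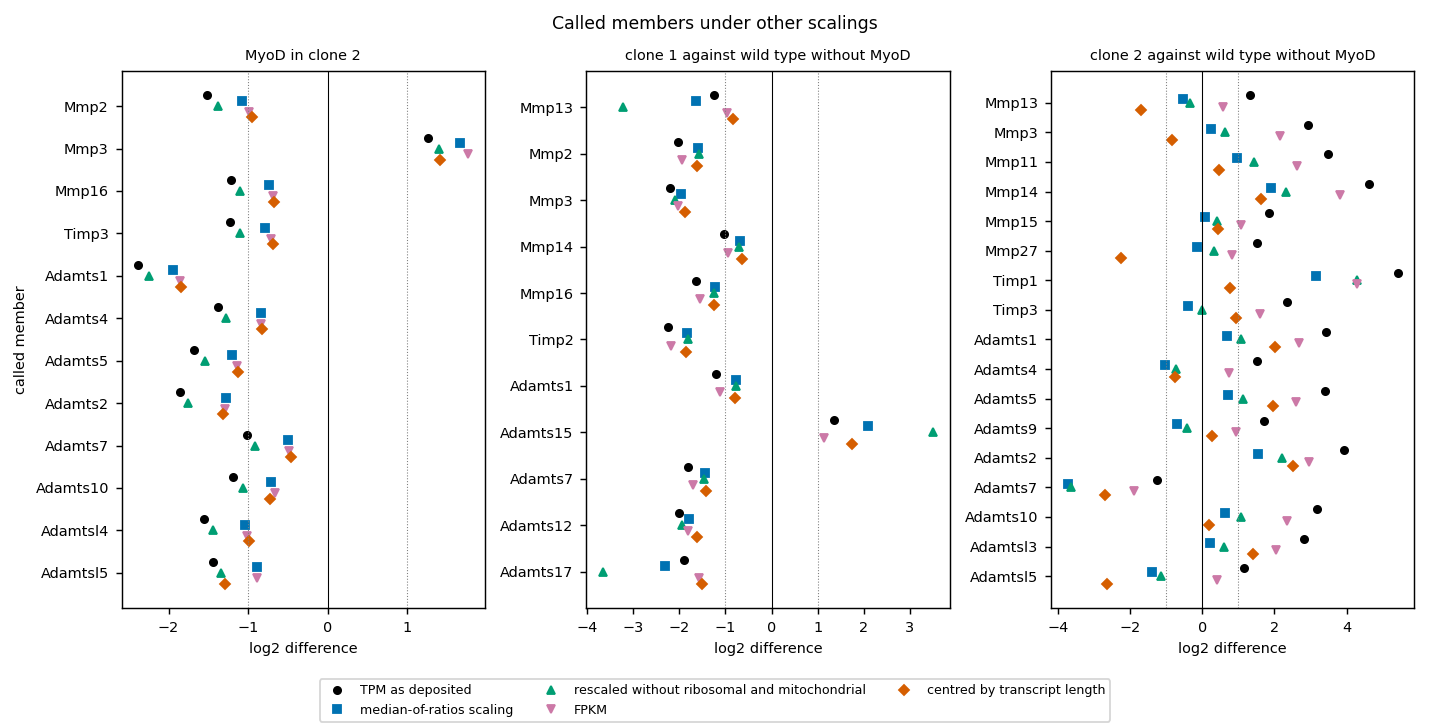
Difference on the log2 scale (x axis) of the called members (y axis) in 3 comparisons, in deposited TPM (black circles) and under 4 other scalings (coloured). For MyoD in clone 2 Mmp3 stays at 1.26 or more and Adamts1 at -1.84 or less, and for clone 2 against wild type several members, such as Timp3 and Adamts4, cross 0.

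The LncMyoD plasmid changed no member by the test. Over the 3 lines together, 0 of 29 were called without MyoD, against 0.0300% of all genes, and 0 with MyoD, against 0.0200% of all genes higher and 0.0300% lower. An unadjusted p under 0.05 was reached by 0 and 3 members (Adamts4, Mmp14 and Mmp15), and by 990 and 1582 of the 19983 genes. Differences ran from -0.61 to 0.59 and from -0.64 to 0.77. In each line alone 0 were called too. With MyoD, Adamts4 was called higher with rescaled TPM and with a pseudocount of 0.1, and Adamts2 lower with reference-named transcripts alone.

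Genes that work with the members were counted from lists. They were counted in deposited TPM alone, and no call of a listed gene was checked under the other settings or without single libraries. For MyoD in clone 2, the share of all genes called lower was 1.84% with median-of-ratios scaling and 3.13% with FPKM. For MyoD in wild type and clone 1, 0 were called in any of the 6 lists. In clone 2, where 10.9% of all genes fell, 3 of 8 tested genes of plasminogen activation fell with MyoD, among them Plau (urokinase, -2.34 ± 0.36) and Plaur (its receptor, -2.15 ± 0.31), and 0 rose. Of 8 activators, anchors and clearance genes 4 fell, among them Reck (a membrane-anchored Mmp inhibitor, -1.65 ± 0.36) and Sdc4 (-1.47 ± 0.18). Of 4 procollagen C-proteinases and enhancers 3 fell, with Bmp1, the C-proteinase itself, at -1.33 ± 0.20 and its enhancer Pcolce at -1.31 ± 0.16. Of 10 Adam sheddases 3 fell (Adam15, Adam17 and Adam19), and of 12 cathepsins and cystatins 5, with Ctsd at -1.15 ± 0.19. Of 14 matrix substrates and partners 8 fell, with Thbs1 (thrombospondin-1) at -2.79 ± 0.26, Fbn2 (fibrillin-2) at -2.35 ± 0.58 and Vcan (versican, the Adamts1 substrate) at -1.64 ± 0.16. In these lists 0 genes were called higher. The list medians lay between -0.80 and -1.35, beside -0.23 for all genes. Protein-coding genes at a mean of at least 10 TPM had medians from 0.40 to -0.54 by length class. Of these, 1.49 to 20.3% were lower.

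In clone 1 against wild type the substrates again held the most calls, 7 of 14 lower without and 7 of 14 with MyoD and 0 higher, where 4.06% and 4.95% of all genes were lower. Of protein-coding genes at a mean of at least 10 TPM, 7.13 to 13.5% and 6.09 to 13.7% were lower, by length class. Lum (lumican) was at -3.68 ± 0.27 and -3.52 ± 0.27, Thbs2 at -3.42 ± 0.35 and -3.29 ± 0.35, and Dcn (decorin) at -2.95 ± 0.21 and -2.48 ± 0.21. Plasminogen activation had 2 of 8 lower in each, S100a10 and Anxa2, the 2 parts of a plasminogen receptor. Of 8 activators, anchors and clearance genes 1 was lower without and 2 with MyoD: Furin, which activates membrane-type Mmp precursors, at -1.06 ± 0.23 and -1.16 ± 0.23, and Sdc4, called with MyoD alone, at -1.06 ± 0.18. Of 12 cathepsins and cystatins 2 were lower without MyoD, Cst3 (cystatin C) at -1.53 ± 0.29 and Ctsz at -1.14 ± 0.28, and 0 with it. Of the 4 procollagen C-proteinases and enhancers and the 10 Adam sheddases 0 were called in either comparison. In clone 2 against wild type without MyoD, where 59.6% of all genes were higher, 8 of 8 plasminogen activation genes, 5 of 8 activators, 7 of 10 Adam sheddases, 11 of 12 cathepsins and cystatins, 4 of 4 procollagen C-proteinases and enhancers and 8 of 14 substrates were higher. Of protein-coding genes at a mean of at least 10 TPM, 58.8 to 95.7% were higher by length class, with medians of 1.43 to 4.77. The cathepsin list had a median of 4.27, inside that range, with Ctsz at 5.99 ± 0.28 and Cst3 at 5.78 ± 0.29. Thbs2 was lower in clone 2, at -1.81 ± 0.35 without and -3.40 ± 0.35 with MyoD.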

How the data were processed

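Polyadenylated RNA of 24 libraries (12 groups of 2) was read on a DNBSEQ-G400. Per the submitters' processing notes, reads were handled with bcl2fastq 2.19, Trimmomatic 0.36, HISAT2 2.1.0, SAMtools 1.3 and StringTie 1.3.3 on mm10, while the file headers name StringTie 2.1.2. The deposited transcript files give TPM and FPKM per assembled transcript, per the file headers, and no read counts, so count tests were not used.

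TPM was summed per gene and library. A transcript without a reference name was given to the GENCODE vM21 gene that held at least 50% of its exonic bases on the same strand. Between 6.69 and 37.2% of TPM could not be given to a gene. This share differed by line: clone 1 libraries lost 17.7 to 37.2%, wild type libraries 15.9 to 21.6% and clone 2 libraries 6.69 to 13.5%. Depth, taken as the median ratio of coverage to FPKM over transcripts, was 2.43 to 5.93 gigabases per library, and low genes are the least precise. Genes at 1 TPM or more in at least 2 libraries (19983) were fitted as log2(TPM + 1) with limma 3.58.1 in R 4.3.3, over 12 group means with 12 residual degrees of freedom. Tables and plots were made with Python 3.11.15, pandas 2.3.3 and matplotlib 3.10.9. The 11 comparisons were each adjusted by Benjamini-Hochberg, and a call needed an adjusted p of at most 0.05 and a log2 difference of at least 1. On data simulated for MyoD in clone 2 over 19983 genes, the fit recovered 68 of 100 genes changed by 1.5 and 98 of 100 changed by 3 on the log2 scale, with 10 false calls. The changed genes were drawn from those with a log2(TPM + 1) above 3 in untreated clone 2, which was the baseline of all groups. Recovery of lower genes was not simulated.

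Members and gene lists were chosen with earlier results of these data known. Every called member was named, and from each list of other genes at most 3 called genes with the largest change per comparison. The values of 1 listed gene are not reported here. Values per library are given for the members that the results turn on, and in the heat map for the rest. The latter departs from the rule set, which asked for values per library of every member with a group mean of at least 10 TPM. Alternatives were other scalings (median of ratios, FPKM, TPM rescaled without the ribosomal copy and mitochondrial genes), reference-named transcripts alone, a pseudocount of 0.1 TPM, no filter, only the groups compared, a replicate block and each library left out. Leaving out the plasmid libraries, centring on genes of like transcript length and adding unnamed transcripts to the gene that held at least 50% of their span were also run, the latter 2 chosen after seeing the data. The total behind rescaled TPM held only TPM given to genes, so transcripts not given to a gene were left out of it as well. The 10 settings counted in the report leave out the plasmid and single-library ones.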

Additional observations from a re-analysis of the deposited data

Results flagged for a closer look

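The response to MyoD differed between clone 2 and wild type in 7 members by the test of the difference itself (limma, Benjamini-Hochberg over 19983 genes), each lower in clone 2. Adamts1, a versican protease, differed by -2.42 ± 0.26 (SE, adjusted p = 4.06e-05). Mmp2, gelatinase A, differed by -1.31 ± 0.27 (adjusted p = 0.00733) and the inhibitor Timp3 by -1.32 ± 0.29 (adjusted p = 0.0119). Adamts2, the procollagen N-proteinase, differed by -1.93 ± 0.46, and Adamts5, an aggrecanase, by -1.41 ± 0.36. The ADAMTS-like genes Adamtsl4 and Adamtsl3 differed by -1.61 ± 0.41 and -1.34 ± 0.34. Adjusted p-values of these 4 lay between 0.0182 and 0.0268. With unnamed transcripts inside the gene span added, Adamtsl3 was at 70.3 to 85.5 TPM without and 47.9 to 86.7 TPM with MyoD in clone 2, and at 10.0 to 32.2 TPM and 15.9 to 20.1 TPM in wild type. Its difference was then -0.26 (adjusted p = 0.819) and that of Adamts2 was -2.01 (adjusted p = 0.112), so neither was called, while the other 5 were.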

How the results depend on the processing

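With 2 libraries per group, no read counts and 1 clone per knockout line, small differences of low members could not be resolved. Counts of called members that moved were as follows. MyoD in clone 1 went from 0 to 1 with median-of-ratios scaling and pseudocount 0.1 and to 2 with rescaled TPM. MyoD in clone 2 went from 12 to 6 with median-of-ratios scaling and to 5 with FPKM and length centring. Clone 1 against wild type without MyoD went from 11 to 5 with reference-named transcripts alone or only the groups compared, 7 with length centring and 6 without the plasmid libraries. With MyoD it went from 14 to 8 with reference-named transcripts and 7 with only the groups compared. The plasmid with MyoD went from 0 to 1 with rescaled TPM, reference-named transcripts or pseudocount 0.1. The clone 1 response went from 0 to 1 with rescaled TPM, and the clone 2 response from 7 to 2, 1 and 3 with median-of-ratios, rescaled TPM and FPKM, 12 with reference-named transcripts, 4 with pseudocount 0.1, 2 with length centring and 1 without the plasmid libraries. The cause was not tested.

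Adding intragenic transcripts moved no count by over 1.5 times but ended 14 of the 77 calls. Directions turned only for clone 2 against wild type. Without MyoD, median-of-ratios scaling gave Adamts4 -1.03, Timp3 -0.39, Adamts9 -0.70, Adamtsl5 -1.41, Mmp13 -0.53 and Mmp27 -0.17. Rescaled TPM gave Adamts4 -0.74, Timp3 -0.017, Adamts9 -0.43, Adamtsl5 -1.15 and Mmp13 -0.34. Length centring gave Adamts4 -0.75, Mmp3 -0.86, Adamtsl5 -2.65, Mmp13 -1.70 and Mmp27 -2.27, and reference-named transcripts gave Adamts7 2.07. Length centring moved the median of all genes to -1.49 there, so a turned direction of a low member can come from the setting itself. With MyoD, median-of-ratios scaling gave Timp3 -1.21, Adamts1 -1.23, Adamts5 -0.14, Adamts9 -0.61, Mmp15 -0.55 and Adamtsl3 -0.65. Rescaled TPM gave Timp3 -1.22, Adamts1 -1.23, Adamts5 -0.14, Adamts9 -0.73, Mmp15 -0.70 and Adamtsl3 -0.69. Length centring gave Mmp11 -0.30 and Adamts10 -0.29, and reference-named transcripts gave Adamtsl3 -2.69.

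Leaving out 1 library at a time gave 0 to 0 calls for MyoD in wild type and in clone 1, for the plasmid without and with MyoD and for the clone 1 response. It gave 11 to 14 for MyoD in clone 2, 6 to 11 and 10 to 14 for clone 1 against wild type without and with MyoD, 16 to 17 and 14 to 16 for clone 2, and 3 to 11 for the clone 2 response.

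Libraries with the same replicate number did not deviate together, so the numbers were not taken as pairing. With the replicate block the counts were 0, 0 and 13 for MyoD in wild type, clone 1 and clone 2, 11 and 14 for clone 1 and 17 and 16 for clone 2 against wild type, 0 and 0 for the plasmid, and 0 and 7 for the clone 1 and clone 2 responses. The block changed no call of the 77 called members' comparisons.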
